A study of Mus musculus with 9 samples.

Results

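Fibronectin, the product of Fn1, was followed through its 17 transcripts among the 127558 transcript rows of a cardiac RNA-seq series. The members were all rows that carry the gene name Fn1, and the gene had been chosen by its reads, TPM and transcript shares in Tg-RKIP and FVB hearts. Values of Fn1 and its transcripts are therefore given as a description in all 3 groups. Nothing is read from a test of them, since every contrast with FVB uses values that entered the choice. The study compared hearts of 3 groups of male mice on the FVB/N strain, all 8 months old, with 3 mice in each group. Tg-RKIP mice carried an RKIP transgene (RKIP is the Raf kinase inhibitor protein, encoded by Pebp1), Tg-GRK2 mice carried a transgene for the G-protein-coupled receptor kinase GRK2, and FVB mice carried no transgene. The RKIP transgene was under the alpha-MHC promoter, which is active in cardiomyocytes, and the Tg-RKIP mice had symptoms of heart failure. Whole hearts were used, and a change in the number of cells of a type cannot be told apart from a change in RNA per cell.

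Fibronectin is a large glycoprotein of the extracellular matrix that binds integrins, collagens and heparan sulphate and is laid down as fibres by fibroblasts. Its pre-mRNA is spliced in 3 places. The EDA and EDB exons each encode 1 whole extra module and are included mainly in the cellular form made in tissues, whereas the plasma form secreted by hepatocytes lacks both; the V region, also called IIICS, is included in full, in part or not at all and holds a binding site for alpha4 integrins. The EDA form is known for its appearance in injured and fibrotic tissue.

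The gene lies on chromosome 1 between 71624679 and 71692359 on the minus strand, in the coordinates of the deposited tables (GRCm39 per the submitters' processing notes). No other gene with reads in the tables overlapped it. Of the 17 transcripts, 7 were full-length protein-coding transcripts with 44 to 46 exons and 7410 to 8315 bases. EDA was present in 4 of these 7 (Fn1_6, Fn1_7, Fn1_9 and Fn1_11) and absent from 3 (Fn1_8, Fn1_10 and Fn1_12), and EDB was present in Fn1_11 alone. The V region was 360 bases long in Fn1_6, Fn1_11 and Fn1_12, 285 bases in Fn1_9 and Fn1_10, and 0 bases in Fn1_7 and Fn1_8. The EDA exon spans 71642819 to 71643088 (270 bases), the EDB exon 71652922 to 71653194 (273 bases) and the longest form of the V region 71636547 to 71636906.

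The transcript named Fn1_1 (ENSMUST00000185408) is of another kind. It is annotated as a retained intron, which means that it is not expected to encode fibronectin. It has 17 exons and 4022 bases, starts at 71648726 inside the gene, lacks the 27 exons of the longest transcript that lie upstream, lacks EDA, and keeps the intron of 626 bases between 71636907 and 71637532, directly 5′ of the V region. The other 9 transcripts were partial: Fn1_13, which is annotated as a target of nonsense-mediated decay, covers 10 exons of the 3′ part, and the rest cover pieces of the gene.

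**Figure D1:**
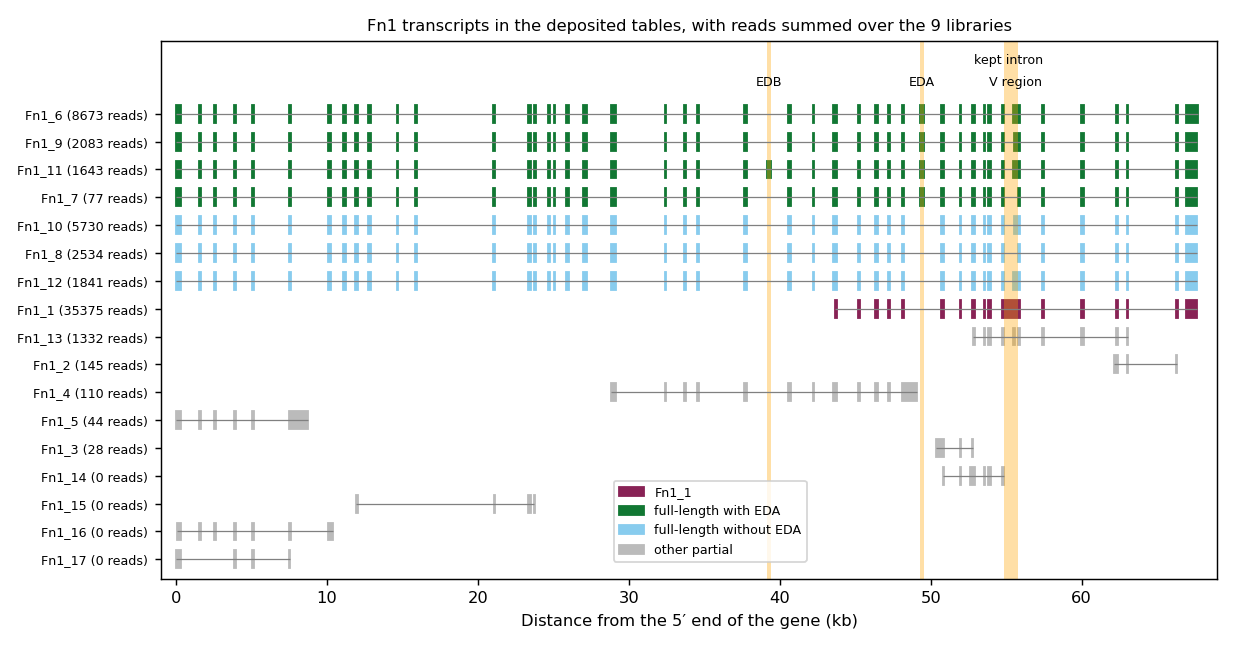
Map of the 17 Fn1 transcripts, with the distance from the 5′ end of the gene in kb on the horizontal axis, exons as boxes and the reads summed over the 9 libraries beside each name. Shading marks EDB, EDA, the V region and the intron kept in Fn1_1. Fn1_1 holds 35375 reads and covers only the 3′ part, whereas Fn1_6, the full-length transcript with the most reads, holds 8673.

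Every EDA value is built from reads assigned to whole transcripts, not from reads counted on the EDA exon or its skipping junction. The sequences that tell the Fn1 forms apart are given as a description of where the forms differ. They were read from the GENCODE M21 transcripts (GRCm38) with the same identifiers, and all 17 had the same exon lengths there. The EDA exon is in capitals with 15 bases of its neighbours in lower case, and the junction that skips it has the first bases of the next exon in capitals. EDB is given as the exon alone.

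EDA exon, Fn1_6: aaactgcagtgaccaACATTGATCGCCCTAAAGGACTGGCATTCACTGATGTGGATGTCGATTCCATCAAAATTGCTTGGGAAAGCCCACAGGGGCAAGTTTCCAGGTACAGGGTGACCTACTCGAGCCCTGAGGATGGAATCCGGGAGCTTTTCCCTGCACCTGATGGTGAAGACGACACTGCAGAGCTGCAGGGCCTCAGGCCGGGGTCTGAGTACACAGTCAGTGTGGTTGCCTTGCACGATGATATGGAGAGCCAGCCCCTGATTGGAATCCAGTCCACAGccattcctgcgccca
EDA skipped, Fn1_8: aaactgcagtgaccaCCATTCCTGCGCCCA
EDB exon, Fn1_11: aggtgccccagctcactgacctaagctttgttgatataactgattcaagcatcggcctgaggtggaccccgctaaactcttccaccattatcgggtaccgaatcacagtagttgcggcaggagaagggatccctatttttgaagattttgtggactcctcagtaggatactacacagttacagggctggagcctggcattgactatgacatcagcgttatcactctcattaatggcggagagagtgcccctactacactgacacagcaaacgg

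In the V region, the capitals mark the first bases after the splice in the 3 full-length forms, and in Fn1_1 they mark bases of the kept intron at its start and at its end.

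V region of 360 bases, Fn1_6: ggaggaagaagacagATGAGCTTCCCCAAC
V region of 285 bases, Fn1_9: ggaggaagaagacagTTCAAAAGACCCCCT
V region skipped, Fn1_8: ggaggaagaagacagGACAGGAAGCTCTCT
Intron start, Fn1_1: ggaggaagaagacagGTAAAGACTCATAAC
Intron end, Fn1_1: ACCTCTCTTGGCTAGatgagcttccccaac

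Reads were 50 bases long, so the number of 50-base windows that belong to a single transcript shows how far a read could name it. Fn1_1 had 659 windows of its own and Fn1_11 had 321, whereas Fn1_12 had 25, Fn1_6 had 3, and Fn1_7, Fn1_8, Fn1_9 and Fn1_10 had 0. The EDA exon gave 315 windows found in all 4 EDA transcripts and in no other Fn1 transcript. The junction that skips EDA gave 49 windows, all of which also occur in Fn1_1, so no window marked the full-length transcripts without EDA apart from Fn1_1. All 7 full-length transcripts shared 4325 windows that Fn1_1 lacks, 4323 of them upstream of it. How the authors divided reads between transcripts that share sequence is not given in the sources used here. Values of single full-length transcripts carry that uncertainty. So do the reads of Fn1_1 and the full-length sum, since 3301 of the 3973 windows of Fn1_1 also occur in a full-length transcript.

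Sequencing depth was 25458108 to 33447654 counted reads per library. Pebp1 was raised in the Tg-RKIP hearts (log2 fold change 4.81, adjusted p = 4.04e-33, edgeR). Grk2 was 27.3 ± 2.90 TPM in the Tg-GRK2-labelled hearts and 27.1 ± 1.05 TPM in FVB (mean ± SD, n = 3), and did not pass the test across all genes (log2 fold change 0.05, adjusted p = 0.354), so these 3 are named by their label, as the Tg-GRK2-labelled hearts. Mitochondrial genes took 11.5% to 11.8% of reads in Tg-RKIP and 22.4% to 23.2% in the other 6 libraries, and scaling by library size alone moved the median gene by 0.38 on the log2 scale in Tg-RKIP against FVB. Cardiomyocyte markers (Myh6, Tnnt2, Actc1, Tnni3, Ttn) were abundant in all 9 libraries, with a summed level of 29317 to 30767 TPM in FVB and the Tg-GRK2-labelled hearts and 33408 to 33953 TPM in Tg-RKIP. On reads, 4 of the 5 were called lower and 0 higher in Tg-RKIP, and 2 higher and 3 lower in the Tg-GRK2-labelled hearts (edgeR). Over all genes, 37.1% were called lower and 36.8% higher in Tg-RKIP, and 12.2% in each direction in the Tg-GRK2-labelled hearts.

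Transcript levels of Fn1 were lowest in FVB hearts, slightly higher in the Tg-GRK2-labelled hearts and highest in Tg-RKIP hearts. In TPM (a library-scaled level per transcript length), Fn1 was 22.2, 22.4 and 22.8 in the FVB hearts, 28.9, 30.9 and 28.2 in the Tg-GRK2-labelled hearts and 184, 186 and 186 in the Tg-RKIP hearts. The 3 groups did not overlap. Relative to the FVB mean, the level was 1.31 ± 0.0622-fold in the Tg-GRK2-labelled hearts and 8.25 ± 0.0554-fold in Tg-RKIP (mean ± SD, n = 3). Ordered by TPM among all genes, Fn1 ranked between 3622 and 3708 in FVB, between 2931 and 3121 in the Tg-GRK2-labelled hearts and between 653 and 656 in Tg-RKIP.

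In TMM-normalised CPM, Fn1 stood at 89.0 ± 2.92 in FVB and 123 ± 2.98 in the Tg-GRK2-labelled hearts (n = 3 each), a log2 fold change of 0.47 (SE 0.03) in the fit over 15504 genes. All 3 Tg-GRK2-labelled hearts lay above all 3 FVB hearts. In that contrast 24.5% of all genes were called at an adjusted p under 0.05, and Fn1 was among them in the fit, from which nothing is read here. For Tg-RKIP against FVB the fitted log2 fold change on reads was 2.25 (SE 0.02), with 422 ± 4.69 CPM in Tg-RKIP.

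**Figure D2:**
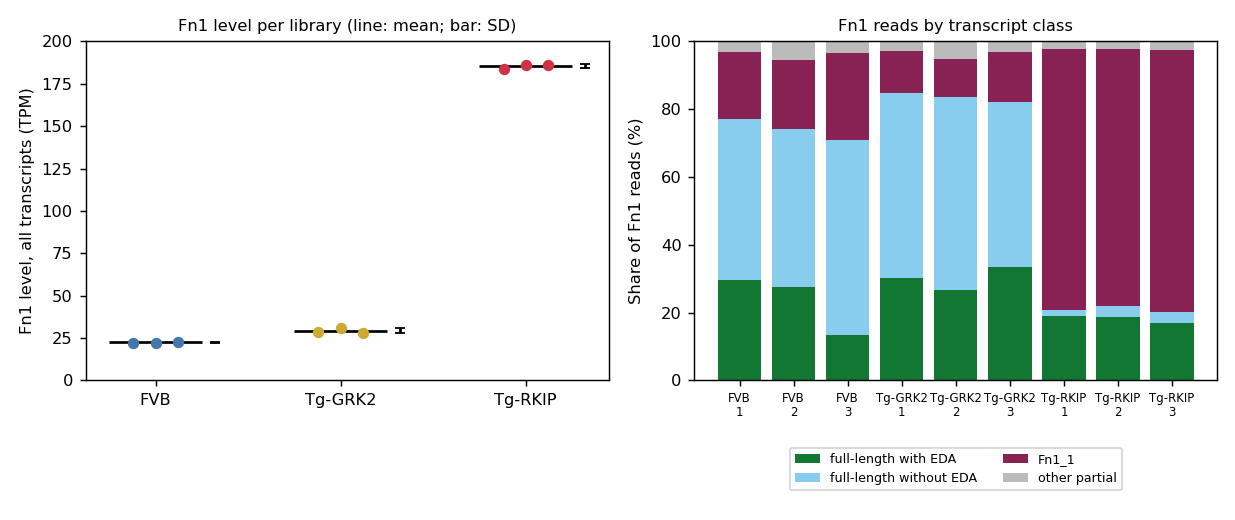
Left, Fn1 level in TPM for each library with the group mean (line) and SD (bar); right, the share of Fn1 reads in percent that each transcript class holds in each library. The Tg-RKIP hearts lie at 184 to 186 TPM against 22.2 to 22.8 in FVB, and Fn1_1 holds 75.8% to 77.2% of their Fn1 reads.

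The increase in Tg-RKIP hearts lay for the most part in reads assigned to Fn1_1. Its reads numbered 441, 492 and 577 in FVB, 427, 349 and 539 in the Tg-GRK2-labelled hearts and 9975, 12829 and 9746 in Tg-RKIP. In TPM, Fn1_1 stood at 6.65 ± 1.17 in FVB, 5.54 ± 0.747 in the Tg-GRK2-labelled hearts and 147 ± 0.981 in Tg-RKIP. FVB and the Tg-GRK2-labelled hearts overlapped, and Tg-RKIP lay apart from both. The fitted log2 fold change of Fn1_1 in Tg-RKIP against FVB was 4.06 (SE 0.06) when fitted among the gene sums. In the fit over single transcripts it was 4.09 (SE 0.14).

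All 7 full-length transcripts together, which encode the protein, differed far less. Their summed reads were 1724, 1800 and 1591 in FVB, 2866, 2656 and 3000 in the Tg-GRK2-labelled hearts and 2677, 3696 and 2571 in Tg-RKIP. On the TPM scale these sums ranged from 11.2 to 12.2 in FVB, from 17.8 to 19.4 in the Tg-GRK2-labelled hearts and from 19.6 to 21.5 in Tg-RKIP. The groups did not overlap, but the Tg-GRK2-labelled hearts and the Tg-RKIP hearts were close. On reads, the full-length log2 fold change was 0.64 (SE 0.04) for the Tg-GRK2-labelled hearts and 0.43 (SE 0.04) for Tg-RKIP, both against FVB; scaled by library size alone, the latter was 0.81. The full-length grouping was chosen after the values were seen.

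As a share of all Fn1 reads, Fn1_1 held 21.9% ± 3.30 in FVB, 12.8% ± 1.88 in the Tg-GRK2-labelled hearts and 76.7% ± 0.736 in Tg-RKIP (SD, n = 3). As a share of TPM the values were 29.6% ± 4.83, 19.0% ± 3.39 and 79.5% ± 0.972. The libraries labelled Tg-GRK2 lay below FVB without overlap in both shares, with a difference in the share of reads of -9.10 percentage points.

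Reads can be set against transcript position without trusting the split between similar transcripts. The 4325 windows that all full-length transcripts share and Fn1_1 lacks, 4323 of which lie upstream of it, also occur in part in 5 partial transcripts, 2 of which had reads (Fn1_4 and Fn1_5). If every read was given to a transcript that contains it, these windows can have given no more reads than the full-length transcripts and those partial ones hold together, and the 3973 windows of Fn1_1 no fewer than the reads of Fn1_1. The resulting lower bound on the 3′ to 5′ ratio of reads per window was 4.04, 3.75 and 4.09 in Tg-RKIP. It was 0.277 to 0.391 in FVB and 0.142 to 0.194 in the Tg-GRK2-labelled hearts. Under that condition the ratio itself was above 1 in the 3 Tg-RKIP libraries. A lower bound below 1 does not limit the ratio from above, so the bounds do not compare the groups.

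Reads assigned to transcripts annotated as retained intron were also followed in the rest of the transcriptome. They are reads assigned to whole transcripts, not reads counted on introns. Among 5554 genes with at least 200 reads in each library, the share of a gene's reads on retained-intron transcripts was 54.5 percentage points higher in Tg-RKIP than in FVB for Fn1, against a median of -0.0085 points, and 2280 of the 5554 genes gained. Only 3 genes reached that gain, which were Tet2 with 62.1 points, Acacb with 55.1 points and Fn1 itself. Since Fn1 was chosen partly by its transcript shares in Tg-RKIP and FVB, its place among these genes is a description only. For the Tg-GRK2-labelled hearts, Fn1 changed by -9.01 points and 38 genes lay at or below it. In Tg-RKIP against FVB, 4.94% of 3904 retained-intron transcripts were called for higher use in their gene and 2.00% for lower use. Retained-intron transcripts took 2.73% to 2.89% of all reads in Tg-RKIP, 1.81% to 1.89% in FVB and 1.74% to 1.81% in the Tg-GRK2-labelled hearts. The median share per gene ran the other way, with 0.356% to 0.390% in Tg-RKIP, 0.476% to 0.502% in FVB and 0.444% to 0.481% in the Tg-GRK2-labelled hearts. The part of these values in those of Fn1 was not tested.

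Within the full-length transcripts, reads assigned to those with EDA were higher in Tg-RKIP and reads assigned to those without EDA were lower. No window sets the transcripts without EDA apart from Fn1_1. A change in their level therefore cannot be told apart from a different division of shared reads. Reads on the 4 EDA transcripts were 662, 668 and 299 in FVB, 1018, 845 and 1219 in the Tg-GRK2-labelled hearts and 2449, 3155 and 2161 in Tg-RKIP. Reads on the 3 transcripts without EDA were 1062, 1132 and 1292, then 1848, 1811 and 1781, then 228, 541 and 410 in the same order of groups. No 2 groups overlapped in either class. The log2 fold changes in Tg-RKIP against FVB were 1.88 (SE 0.13) with EDA and -1.94 (SE 0.13) without it, and in the Tg-GRK2-labelled hearts they were 0.82 (SE 0.14) and 0.55 (SE 0.10).

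EDA transcripts thus held 91.5%, 85.4% and 84.1% of full-length reads in Tg-RKIP, 38.4%, 37.1% and 18.8% in FVB and 35.5%, 31.8% and 40.6% in the Tg-GRK2-labelled hearts. The last 2 groups overlapped, and FVB replicate 3 lay far below the others. This share depends on where Fn1_1 is placed, since Fn1_1 carries the EDA-skipping junction. With Fn1_1 counted as a transcript without EDA, the shares were 17.5% to 19.4% in Tg-RKIP and 13.8% to 30.6% in FVB, and the difference of group means turned from 55.5 to -5.84 percentage points. The deposited reads therefore do not fix the direction of the EDA share in Tg-RKIP. Reads on EDA transcripts were higher in each Tg-RKIP library than in the other groups. They are reads assigned to whole transcripts, and only 315 windows occur in all EDA transcripts and in no other Fn1 transcript.

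**Figure D3:**
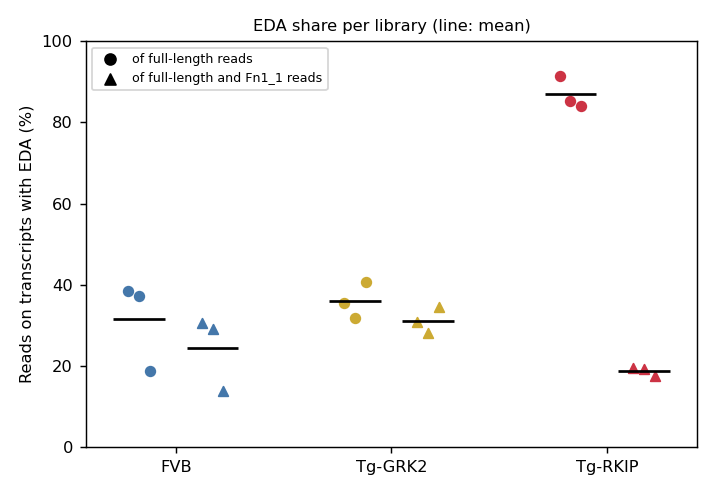
Share of reads on transcripts with the EDA exon, in percent, per library, with the mean as a line. Circles are relative to the full-length reads (84.1% to 91.5% in Tg-RKIP, 18.8% to 38.4% in FVB) and triangles relative to the full-length and Fn1_1 reads together, where Tg-RKIP lies at 17.5% to 19.4%.

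EDB was carried by Fn1_11, which had 70, 122 and 107 reads in FVB, 91, 154 and 256 in the Tg-GRK2-labelled hearts and 388, 326 and 129 in Tg-RKIP. As a share of full-length reads this was 4.06% to 6.78% in FVB, 3.18% to 8.53% in the Tg-GRK2-labelled hearts and 5.02% to 14.5% in Tg-RKIP. All 3 ranges overlapped.

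The V region forms varied widely within groups. The form of 360 bases took 29.5% to 71.0% of full-length reads in FVB, 45.1% to 49.3% in the Tg-GRK2-labelled hearts and 60.4% to 66.9% in Tg-RKIP. The form of 285 bases took 9.45% to 59.7%, 40.7% to 52.2% and 18.6% to 28.5%, and the form without the V region 10.7% to 19.5%, 2.71% to 12.6% and 10.1% to 16.5%. The FVB range enclosed or overlapped the Tg-RKIP range for every form, whereas Tg-RKIP and the Tg-GRK2-labelled hearts did not overlap in the forms of 360 and 285 bases.

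Single full-length transcripts showed the same spread. Fn1_10 had 163, 747 and 922 reads in FVB and 1157, 1378 and 1343 in the Tg-GRK2-labelled hearts, but 5, 14 and 1 in Tg-RKIP. Fn1_12 had 563, 122 and 201 reads in FVB, 332, 362 and 261 in the Tg-GRK2-labelled hearts and 0 in all 3 Tg-RKIP libraries, where 3 reads would be a share of up to 0.0237% of Fn1 reads. Fn1_9 went the other way, from 0, 10 and 28 reads in FVB and 10, 8 and 2 in the Tg-GRK2-labelled hearts to 757, 675 and 593 in Tg-RKIP. Fn1_9 and Fn1_10 share their V region of 285 bases and differ in EDA, and neither has a window of its own.

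Fn1_6, the full-length transcript with the most reads, carries EDA and the whole V region. It had 591, 535 and 162 reads in FVB, 915, 682 and 961 in the Tg-GRK2-labelled hearts and 1257, 2146 and 1424 in Tg-RKIP. Fn1_8, which lacks EDA and the V region, had 336, 263 and 169, then 359, 71 and 177, then 223, 527 and 409 reads, and its groups overlapped. Fn1_7 had 0 to 2 reads outside Tg-RKIP and 47, 8 and 15 in Tg-RKIP.

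Of the partial transcripts, Fn1_13 had 50, 125 and 62 reads in FVB, 69, 132 and 93 in the Tg-GRK2-labelled hearts and 230, 313 and 258 in Tg-RKIP, with Tg-RKIP above the other 2 groups. Fn1_2, which covers 3 exons of the 3′ part, had 14, 0 and 0 reads in FVB and 31, 46 and 50 in Tg-RKIP. Fn1_3, Fn1_4 and Fn1_5 had at most 23 reads in any library. No read was assigned to Fn1_14, Fn1_15, Fn1_16 or Fn1_17, where 3 of the 59615 Fn1 reads would be a share of up to 0.00503%, a limit that covers counting error only.

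**Figure D4:**
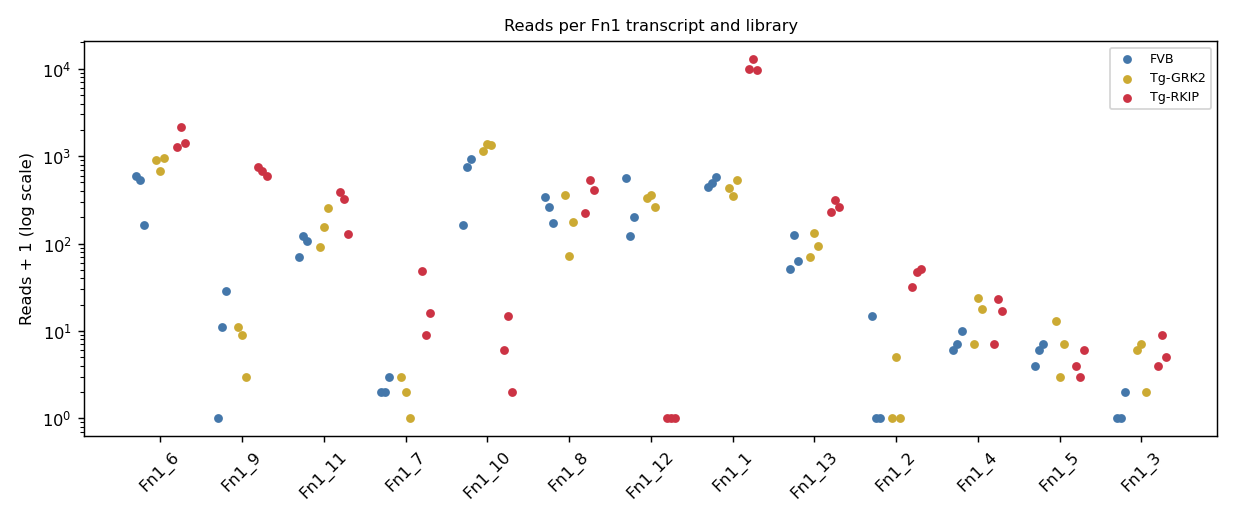
Reads plus 1 on a log scale for the 13 Fn1 transcripts with a read, 1 point per library and 1 colour per group. Fn1_1 stands at 9746 to 12829 reads in Tg-RKIP against 441 to 577 in FVB, while Fn1_10 and Fn1_12 are lowest in Tg-RKIP.

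In the fit of the Tg-GRK2-labelled hearts against FVB, 10 of the 17 transcripts passed the filter on low counts and 0 were called by edgeR, where 3.42% of 34991 transcripts were called. The filter used all 9 libraries. Fn1_9 and Fn1_2 passed it through their reads in Tg-RKIP, with 593 to 757 and 31 to 50 there. They had at most 28 and 14 reads in any library of this contrast. At an unadjusted p under 0.05 the number was 0 by edgeR, 2 by DESeq2 and 1 or 2 by limma on log2 TPM, and DESeq2 and limma also called 0 after adjustment. For transcript use, the change of a transcript relative to the rest of its gene, edgeR called 0 of 10, against 0.768% of 28633 transcripts, and 1 of 10 had an unadjusted p under 0.05. This was Fn1_1, with a relative log2 change of -0.54, and it was called without FVB replicate 1. Nothing is read from these counts, since the FVB values entered the choice of the gene. The log2 fold changes of single transcripts in this contrast were 0.91 (SE 0.39) for Fn1_6, 1.00 (SE 0.56) for Fn1_10 and -0.30 (SE 0.14) for Fn1_1.

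Genes related to fibronectin were followed in 5 lists of 58 genes, all of which were tested. The lists held receptors, matrix partners, adhesion adaptors, TGF-beta genes and splicing factors, and not every product binds fibronectin. In Tg-RKIP against FVB, 36 were increased and 18 decreased, where 36.8% of all genes were called higher and 37.1% lower (73.9% in all), so that a call by itself says little in this contrast. The median log2 fold change was 0.23 over the lists and 0.01 over all genes. With library size alone 46 were higher and 9 lower, where 9710 of all 15504 genes were called higher and 2649 lower. By limma on log2 TPM the split was 47 and 8. With 0.1 added, limma called 8889 of all 13478 genes higher and 1947 lower, so most genes were called higher under both settings. In the Tg-GRK2-labelled hearts against FVB, 24 were increased and 7 decreased, where 12.2% of genes were called in each direction. The medians were 0.05 and -0.0023. By limma on log2(TPM + 0.1) the split was 19 and 1, where 1578 of all 13478 genes were called higher and 613 lower.

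Among receptors (integrins and syndecans), 11 of 13 were increased and 2 decreased in Tg-RKIP, with a median log2 fold change of 0.59. Sdc4, a heparan sulphate proteoglycan that binds fibronectin together with integrins, rose from 14.0 ± 0.385 TPM in FVB to 54.4 ± 2.72 TPM (log2 fold change 1.54), and Itgb7, an integrin chain of leukocytes, rose by 1.50 on the log2 scale to 5.89 TPM. Itgb6, an epithelial integrin chain that activates latent TGF-beta, fell by 1.30 on the log2 scale, and Itga8, an integrin chain of smooth muscle and mesenchymal cells, fell by 0.44. Itga8 was not called with library size alone (-0.063, adjusted p = 0.285) or by limma on log2(TPM + 0.1) (-0.011, adjusted p = 0.889), and stood at 7.05 TPM in FVB and 7.01 TPM in Tg-RKIP. Of the same receptors, 4 were increased and 0 decreased in the Tg-GRK2-labelled hearts (edgeR), but 2 without FVB replicate 3 and by limma. Itgb6 was among them, from 6.10 ± 0.288 to 10.6 ± 0.512 TPM (log2 fold change 0.66). Itga2b and Itgb3, which form the fibrinogen receptor of platelets, were higher by 1.68 and 0.37 on the log2 scale, at low levels of 1.36 and 1.13 TPM. Itga2b was not called by limma on log2(TPM + 0.1) (adjusted p = 0.0522), and Itgb3 was not called by DESeq2 or without any one of Tg-GRK2 replicates 1 and 2 and FVB replicates 2 and 3 (0.29 to 0.40).

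Matrix partners were the list with the largest median, 1.63 in Tg-RKIP and 0.26 in the Tg-GRK2-labelled hearts. In Tg-RKIP, 10 of 12 were increased and 2 decreased. Col1a1, the alpha1 chain of type I collagen, rose from 28.1 ± 0.693 to 220 ± 2.66 TPM (log2 fold change 2.55), and Thbs1, a matricellular protein that activates TGF-beta, from 5.98 ± 0.217 to 40.9 ± 1.11 TPM (log2 fold change 2.36). Hspg2 (perlecan, a basement membrane proteoglycan) and Ltbp1 (a latent TGF-beta binding protein) were lower by this fit, with log2 fold changes of -0.35 and -0.31, but at 0.030 (not called, adjusted p = 0.176) and 0.068 (called) with library size alone, and higher by limma on log2(TPM + 0.1) (0.92 and 0.30). With library size alone 11 of the list were higher and 0 lower, and by limma 12 and 0, where both settings called most of all genes higher.

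Matrix partners numbered 8 increased and 1 decreased for the Tg-GRK2-labelled hearts. Col3a1, the chain of type III collagen, rose from 85.6 ± 2.00 to 135 ± 5.23 TPM (log2 fold change 0.76), Fbn1, which forms microfibrils, by 0.72 on the log2 scale and Col1a1 by 0.61. Col1a2 was higher by 0.45 and Hspg2 by 0.31 on the log2 scale, of which Hspg2 was not called by limma on log2(TPM + 0.1) (0.093, adjusted p = 0.153). Both contrasts share the FVB libraries.

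Of the adhesion adaptors, which link integrins to actin, 7 of 13 were increased and 6 decreased in Tg-RKIP. The split was 8 and 4 with library size alone and 8 and 3 by limma, where both settings called most of all genes higher. Zyx, a protein of stressed actin fibres, rose by 1.02 on the log2 scale and Src, a tyrosine kinase, by 0.76. Tln2, the talin form of striated muscle, fell by 0.83 and Lims1 (PINCH1) fell by 0.79. Tln2 was not called by limma on log2(TPM + 0.1) (-0.043, adjusted p = 0.402), with 16.7 ± 0.701 TPM in FVB and 16.2 ± 0.400 TPM in Tg-RKIP, whereas Lims1 was called under both (-0.42 with library size alone and -0.59 by limma). For the Tg-GRK2-labelled hearts, 5 were increased and 0 decreased (edgeR), none by 0.3 or more on the log2 scale.

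In the TGF-beta list, 5 of 8 were increased, 2 decreased and 1 not called in Tg-RKIP. With library size alone or by limma 8 were higher and 0 lower, where both settings called most of all genes higher. The ligands Tgfb3 and Tgfb2 rose from 9.13 ± 0.513 to 37.8 ± 1.25 TPM and from 6.99 ± 0.436 to 26.0 ± 0.459 TPM (log2 fold changes 1.63 and 1.51). The signal transducers Smad4 and Smad3 were lower, with log2 fold changes of -0.24 and -0.13, and both turned positive with library size alone (0.13 and 0.25) and by limma on log2(TPM + 0.1) (0.18 and 0.28). Smad3 was not called by DESeq2 or without Tg-RKIP replicate 3 (-0.10) or FVB replicate 1 (-0.12). The same list had 4 increased and 0 decreased in the Tg-GRK2-labelled hearts (edgeR).

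The splicing factors, several of which are known to act on EDA or on cardiac exons, were divided in both contrasts, with 3 increased and 6 decreased of 12 in each. With library size alone the split in Tg-RKIP was 8 and 4, where 9710 of all 15504 genes were called higher and 2649 lower. Rbfox1 fell from 30.5 ± 1.99 to 12.5 ± 0.863 TPM in Tg-RKIP (log2 fold change -1.68), and Rbm20, which governs the splicing of titin, fell by 0.88 on the log2 scale. Srsf5, an SR protein, rose by 0.28 and Ptbp1, a polypyrimidine tract binding protein, by 0.25. No factor changed by 0.3 or more on the log2 scale in the Tg-GRK2-labelled hearts, and by limma on log2(TPM + 0.1) the split was 1 increased and 0 decreased.

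**Figure D5:**
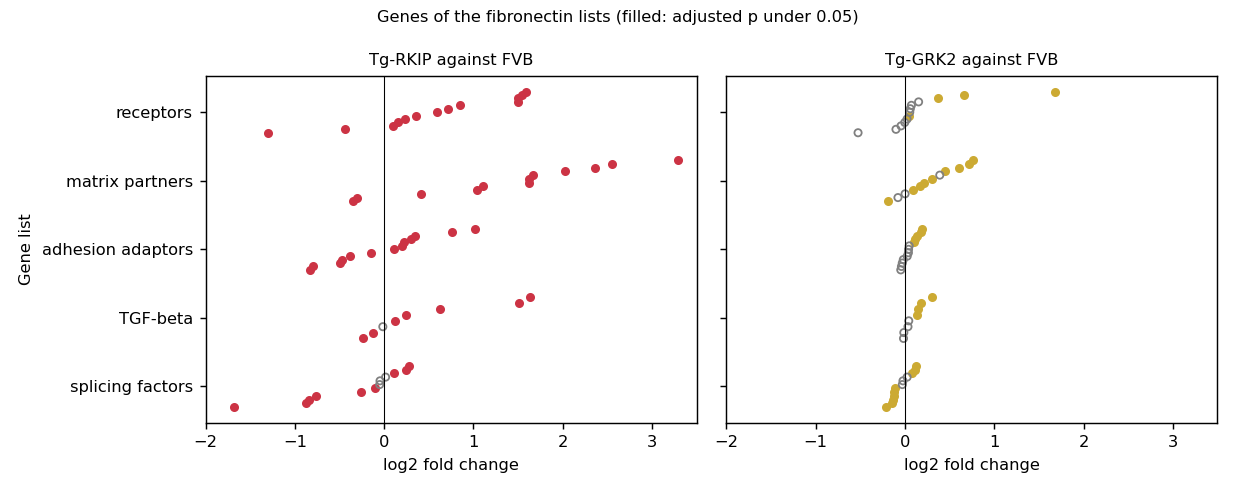
Log2 fold change of each of the 58 list genes in Tg-RKIP against FVB (left) and in the Tg-GRK2-labelled hearts against FVB (right), by list, with filled points for an adjusted p under 0.05. Matrix partners lie farthest to the right, with medians of 1.63 and 0.26.

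The 5 genes whose pattern over the 9 libraries was most like that of Fn1, by the root mean square difference of log2 values among 7758 genes compared, were C4b (0.116), Col1a2 (0.130), Ccl8 (0.143), Nmrk2 (0.167) and Phlda3 (0.170). C4b, a complement component whose reads can be shared with its near-identical copy C4a, stood at 18.1, 23.9 and 133 TPM in FVB, the Tg-GRK2-labelled hearts and Tg-RKIP. Ccl8, a chemokine, stood at 7.21, 11.3 and 43.1 TPM, and Nmrk2, a kinase of NAD synthesis, at 6.23, 7.74 and 35.8 TPM. The likeness is to the summed gene, of which Fn1_1 is the larger part in Tg-RKIP.

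Markers of other cell types moved in the same libraries. Over all genes, 36.8% were called higher and 37.1% lower in Tg-RKIP, and 12.2% in each direction in the Tg-GRK2-labelled hearts. The 6 cardiac fibroblast markers summed to 1699 to 1728 TPM in FVB, 1891 to 1945 TPM in the Tg-GRK2-labelled hearts and 3487 to 3517 TPM in Tg-RKIP, with 6 of 6 increased in Tg-RKIP and 4 of 6 in the Tg-GRK2-labelled hearts. The 5 macrophage markers summed to 104 to 105, 112 to 117 and 263 to 271 TPM, with 5 and 3 of 5 increased. The 4 cartilage markers summed to 12.3 to 13.0 TPM in both other groups and 334 to 341 TPM in Tg-RKIP. All 4 cartilage markers were called higher in Tg-RKIP. The 4 smooth muscle markers summed to 242 to 266, 221 to 227 and 660 to 676 TPM, with 3 higher and 1 lower in Tg-RKIP and 0 higher and 2 lower in the Tg-GRK2-labelled hearts. The 4 endothelial markers summed to 187 to 190, 196 to 201 and 217 to 219 TPM, but on reads 1 was called higher and 3 lower in Tg-RKIP, and 1 higher and 0 lower in the Tg-GRK2-labelled hearts. The hepatocyte markers summed to 0.742 to 5.52 TPM in the 9 libraries, with Alb at 0 reads in Tg-RKIP. Of the 3 hepatocyte markers tested, 1 was higher and 2 lower in Tg-RKIP and 2 lower in the Tg-GRK2-labelled hearts. The part of these cell types in the Fn1 values was not tested.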

How the data were processed

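Total RNA of 9 whole hearts was sequenced as single reads of 50 bases after fragmentation of mRNA and random hexamer priming, per the labels. The authors deposited read counts per transcript for the series and TPM per transcript for each library. Their aligner and counting method are not given in the sources used here, nor is the use of strand; GRCm39 is named in the submitters' processing notes. The deposited TPM equalled TPM recomputed from the reads and transcript lengths within 5.50e-06.

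Reads were summed by gene name and tested with edgeR 4.0.16 (TMM, filterByExpr, quasi-likelihood test, group means over all 9 libraries, Benjamini-Hochberg adjustment over all genes or transcripts, threshold 0.05, R 4.3.3). Transcript use was tested with diffSpliceDGE. Alternatives used DESeq2 1.42.0, limma 3.58.1 on log2(TPM + 0.1) and log2(TPM + 1) for features of at least 1 TPM in 3 libraries, other scalings, filters and samples, and a replicate block. The scripts were tested on simulated data. No replicate pair was identical, with a median squared difference of 1.37 to 1.52 times the sampling noise.

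The members and lists were chosen with earlier results of these data known. The planned tests of Fn1 itself are therefore given as values and counts only, without p-values. From each list, the 2 highest and the 2 lowest called genes in Tg-RKIP against FVB with at least 5 TPM in the higher group were named, and in the libraries labelled Tg-GRK2 the called genes with a log2 fold change of at least 0.3 in size. The 5 genes most like Fn1 were taken from those of at least 10 TPM.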

Additional observations from a re-analysis of the deposited data

How the results depend on the processing

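The log2 fold change of Fn1 in the libraries labelled Tg-GRK2 (0.47), a description, kept its direction under the other scalings, filters, tools and samples, with 0.44 to 0.49 when 1 library was left out and 0.64 over the full-length transcripts only, an alternative chosen after seeing the data. It reversed when Fn1_1, the transcript with the most reads over all 9 libraries, stood for the gene (-0.30). Fn1_1 leads through its reads in Tg-RKIP. In the groups of this contrast Fn1_10 had the most reads, with means of 611 in FVB and 1293 in the libraries labelled Tg-GRK2. The means of Fn1_1 were 503 and 438, and the log2 fold change of Fn1_10 was 1.00 (SE 0.56). In Tg-RKIP against FVB the value of 2.25 became 4.06 for Fn1_1, 0.43 for the full-length transcripts and 2.62 with library size alone. It was 3.04 and 2.99 by limma on log2(TPM + 0.1) and log2(TPM + 1), and lay at 2.22 to 2.26 when 1 library was left out. The share of Fn1_1 differed by 49.9 percentage points of TPM between Tg-RKIP and FVB (48.3 to 52.7 when 1 library was left out) and by 54.8 points of reads.

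The EDA difference between Tg-RKIP and FVB of 55.5 points (49.2 to 59.0 when 1 library was left out) turned to -5.84 when Fn1_1 was counted as lacking EDA, by the construction of that share. The EDA difference between the libraries labelled Tg-GRK2 and FVB was 4.55 points, from -1.77 without FVB replicate 3 to 8.04. These EDA shares were added after seeing the data. Calls of single Fn1 transcripts stayed at 0, and calls of transcript use at 0 to 1, with 1 only without FVB replicate 1.

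The number of list genes called in the libraries labelled Tg-GRK2 was 31, and 20 and 19 by limma on log2(TPM + 0.1) and log2(TPM + 1), and 26 to 30 when 1 library was left out; in Tg-RKIP it was 54, and 52 to 55. The cause was not tested. Against FVB in Tg-RKIP, 4 genes reversed with library size alone and by limma with 0.1 and 1 added: Hspg2 (0.030, 0.92 and 0.91), Ltbp1 (0.068, 0.30 and 0.28), Smad3 (0.25, 0.28 and 0.25) and Smad4 (0.13, 0.18 and 0.17). Over the named genes and the call counts of the single lists together, 612 alternative results were classed as the same, 22 as weaker and 12 as reversed. For a named gene, the same means that direction and call were kept. For a list, it means only a similar number of calls.

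Replicate numbers did not pair the samples, since same-numbered libraries correlated between -0.0455 and 0.0508. With the replicate block, the Fn1 log2 fold change was 0.47 (Tg-GRK2-labelled hearts) and 2.25 (Tg-RKIP), 0 single transcripts and 0 for transcript use were called, and the lists gave 30 and 54 calls.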
